A study of Homo sapiens with 4 samples.

Results

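The aldo-keto reductases described here are the probe sets whose gene symbol in the platform annotation is exactly AKR1A1, AKR1B1, AKR1B10, AKR1C1, AKR1C2, AKR1C3, AKR1C4 or AKR7A2. The 8 genes were chosen from results of these same arrays, so their differences between the groups are given as a description and carry no test. The rule found 13 probe sets among the 49293 that were not array controls, and they belonged to 6 of the 8 genes. AKR1A1, the aldehyde reductase, and AKR1B1, the aldose reductase, had no probe set of their own in the annotation used here and were not analysed here.

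The cells were U87MG, an established line of human glioblastoma, kept in 0.2% oxygen in every sample. One group received the PCMV control vector and the other a NeuroD2 expression vector, and RNA was taken 48 hours after transfection. NeuroD2 is a neurogenic transcription factor of the basic helix-loop-helix class, which binds DNA at the E-box, a short motif written CANNTG. Each group had 2 PrimeView arrays labelled as biological replicates. Nothing in the labels tells whether the 2 were grown and transfected apart, so the spread between these samples may be technical. The adjusted p-values and each SE below join that spread with a variance prior fitted over all probe sets. They therefore do not measure the spread of these samples alone. All values came from 1 cell line at 1 oxygen level and 1 time, and no group at normal oxygen was analysed here.

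Aldo-keto reductases are soluble enzymes that use NADPH to reduce aldehydes and ketones to alcohols. The AKR1C enzymes act mainly on steroid hormones and prostaglandins, AKR1B10 on retinaldehyde and lipid aldehydes, and AKR7A2 on succinic semialdehyde and other reactive aldehydes. Several family members are known targets of NRF2, the transcription factor of the oxidative stress response. The AKR1C genes lie side by side on chromosome 10 and are closely related in sequence, AKR1B10 lies on chromosome 7 and AKR7A2 on chromosome 1. Because relatives share sequence, a probe made for one AKR1C transcript can also bind another, and each probe set is therefore given on its own. In this array's naming, the ending _at marks probes for 1 transcript, _a_at probes for several transcripts of 1 gene, _s_at probes common to several genes, and _x_at a set in which some probes may bind unrelated transcripts.

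The sequences just upstream of the members are shown first for 3 genes, because both AKR1C1 probe sets read higher with NeuroD2, 1 of the 3 AKR1C2 sets was lower, and AKR7A2 was lower on all 3 of its probe sets. They are the 250 bases before the start in RefSeq on GRCh38.p14, written 5′ to 3′ on the strand of the gene, with each E-box (CANNTG, which reads the same way on both strands) in capitals. AKR1C1 is at chr10:4963165-4963414 on the plus strand, AKR1C2 at chr10:5003858-5004107 on the minus strand, and AKR7A2 at chr1:19312147-19312396 on the minus strand.
AKR1C1: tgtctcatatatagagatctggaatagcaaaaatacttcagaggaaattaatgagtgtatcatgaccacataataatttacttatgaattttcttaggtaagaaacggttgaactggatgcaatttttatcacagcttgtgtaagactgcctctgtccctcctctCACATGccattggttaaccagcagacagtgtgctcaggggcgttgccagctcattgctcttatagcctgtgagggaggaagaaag
AKR1C2: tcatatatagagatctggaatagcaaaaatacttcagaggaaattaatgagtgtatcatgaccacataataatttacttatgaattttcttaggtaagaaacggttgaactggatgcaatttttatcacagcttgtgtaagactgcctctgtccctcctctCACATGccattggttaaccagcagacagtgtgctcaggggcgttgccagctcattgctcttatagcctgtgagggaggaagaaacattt
AKR7A2: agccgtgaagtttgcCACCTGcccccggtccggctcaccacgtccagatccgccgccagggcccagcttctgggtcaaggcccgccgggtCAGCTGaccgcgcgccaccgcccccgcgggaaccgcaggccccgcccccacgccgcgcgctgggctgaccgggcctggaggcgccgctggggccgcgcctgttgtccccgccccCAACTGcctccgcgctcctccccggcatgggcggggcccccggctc

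The AKR1C1 and AKR1C2 windows were nearly the same sequence. In a global alignment 245 of their 250 bases were identical, or 98%, and laid side by side with a shift of 4 bases they differed at 1 of 246 positions. Each held 1 E-box, with the letters CACATG, 85 bases upstream of the start in AKR1C1 and 89 bases upstream in AKR1C2. The same alignment gave 74% and 73.6% identity between AKR1C1 and the windows of AKR1C3, and 64.4% between AKR1C1 and AKR1C4. The AKR7A2 window shared 44% of aligned bases with AKR1C1 and had a GC content of 78.8%, against 40.8% in AKR1C1 and 40% in AKR1C2.

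Of the 8 genes, 7 had at least 1 upstream window, 10 windows in all, and AKR1B10 had none. All 10 windows held an E-box, as did 61.8% of the 35116 promoter windows of the same length in the table. The E-box variant CAGATG, read on both strands, was in 2 of the 10 windows and in 12.2% of all windows. The variant CAGCTG was in 4 of the 10 and in 14.0% of all. Those 4 were the 2 windows of AKR1B1 and the 2 of AKR7A2, and each pair overlaps and holds the same CAGCTG. AKR7A2 held 3 E-boxes, with the letters CACCTG at 235 bases, CAGCTG at 160 bases and CAACTG at 46 bases upstream of the start. It also held 3 matches to TGACNNNGC, the core of the antioxidant response element that NRF2 binds, of which 2 overlapped the CAGCTG. That core, read on both strands, was in 10.9% of all windows and, among the members, only in the 2 overlapping windows of AKR7A2. The AP-1 motif TGANTCA was in 0 of the 10 windows and in 6.57% of all. The core of the hypoxia response element, ACGTG, was in 3 of the 10 and in 18.5% of all. Those 3 were the window of AKR1A1 and the 2 overlapping windows of AKR7A2. A match to such letters is a description of the sequence only.

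The transfected gene was read first. The brightest NEUROD2 probe set, an _s_at set annotated to NEUROD2 alone, read 5.46 and 5.35 on the control arrays. On the NeuroD2 arrays it read 7.37 and 7.82. On the log2 scale of the deposited values the difference was 2.19 (SE 0.16, limma, Benjamini-Hochberg adjusted p = 0.00707). The other 2 NEUROD2 probe sets, an _s_at and an _at set, differed by -0.07 and -0.21 and did not pass the threshold of 0.05. The mesenchymal glioma markers VIM, CD44 and ANXA2 read 12.7 or higher on every array, whereas the glial markers GFAP, OLIG2 and SOX2 read between 4.36 and 7.04. Array medians lay between 5.97 and 5.99. Control replicate 1 stood apart in the spiked-in control RNAs: its mean over the 24 poly-A spike probe sets was 6.95, against 7.96 to 8.03 on the other arrays. All 18 hybridisation spike probe sets were also lowest on control replicate 1, with a mean of 9.56 against 9.90 on control replicate 2 and 10.10 and 10.13 on the NeuroD2 arrays. They were higher on both NeuroD2 arrays than on either control array, by 0.39 on average and by 0.22 without control replicate 1. The part of these spike differences in the results was not tested, and each called member is given below with and without control replicate 1.

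Of the 13 aldo-keto reductase probe sets, 7 were lower and 1 was higher with NeuroD2 at an adjusted p below 0.05 in a limma fit over all probe sets, and 5 did not pass. The sets that passed as lower were all of AKR1B10 (2) and AKR7A2 (3), 1 of the 3 of AKR1C2 and 1 of the 2 of AKR1C3. Of the 2 of AKR1C1, 1 passed as higher, and the other also read higher but did not pass. The other AKR1C2 and AKR1C3 sets differed by 0.17, 0.01 and 0.08, and neither gene passed on the mean of its probe sets. Over all probe sets, 2.87% passed, 1.26% as higher and 1.61% as lower, and since the genes were chosen from this contrast nothing is read from that comparison. The median difference of the 13 was -0.50 on the log2 scale, beside 0.0061 over all probe sets. In 11 of the 13 the control and NeuroD2 values did not overlap, 7 lower and 4 higher, and over all probe sets 49.3% did not overlap. The largest gap between replicates of a member was 0.20 in the control group and 0.34 in the NeuroD2 group, the latter for AKR1C2. RNA from a whole culture cannot tell fewer expressing cells apart from less RNA per cell. The 8 that passed on all 4 arrays kept their direction when any 1 array was left out. Their groups did not overlap, so that outcome was fixed in advance and adds nothing to the calls. Over the whole array, leaving out control replicate 1 gave 0 limma calls (10614 sets at an unadjusted p below 0.05), leaving out control replicate 2 gave 0 (10006 such sets), and leaving out either NeuroD2 array gave 45.

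**Figure D1:**
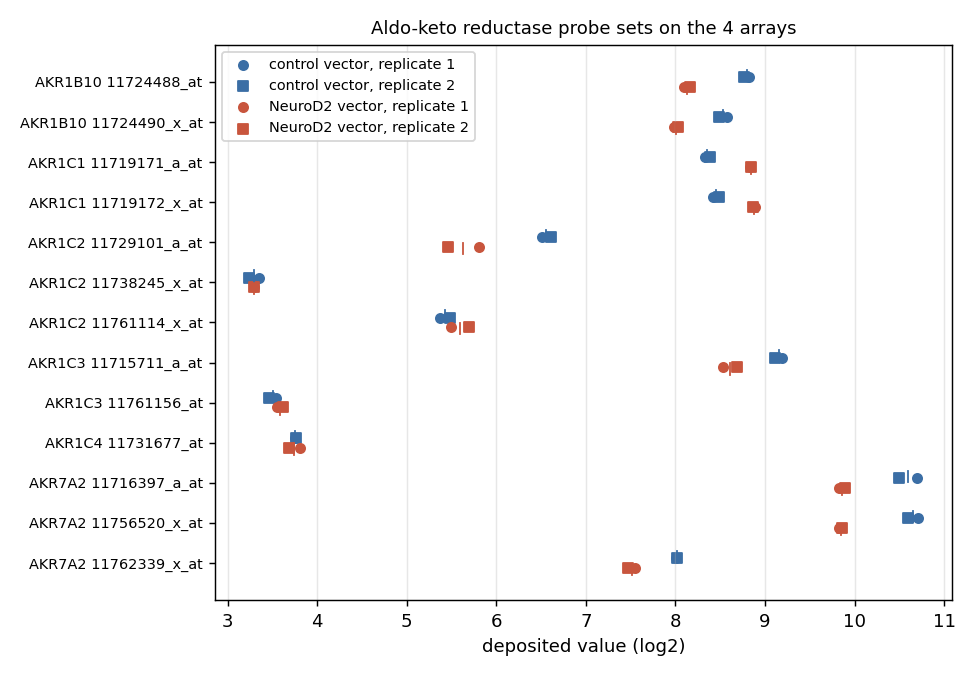
Deposited log2 value (horizontal axis) of each of the 13 member probe sets on each array, blue for the control vector and red for the NeuroD2 vector, circles for replicate 1 and squares for replicate 2, with a short vertical line at each group mean. The red points lie left of the blue ones for AKR1B10, the _a_at sets of AKR1C2 and AKR1C3, and AKR7A2, and right of them for both AKR1C1 sets, while the sets at 3.24 to 3.80 show nearly coincident groups. Only shifts within a row can be read, since different probe sets are not on a common scale.

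AKR1C1, a hydroxysteroid dehydrogenase that inactivates progesterone, was the member that rose. Its _a_at probe set read 8.33 and 8.38 on the control arrays and 8.83 and 8.85 on the NeuroD2 arrays. Both NeuroD2 values were above both control values. The difference in log2 was 0.48 (SE 0.08), a 1.40-fold higher signal, and 0.45 without control replicate 1. The _x_at set of AKR1C1, designed from the same transcript, read 8.42 and 8.49 against 8.89 and 8.87. Its difference of 0.42 (SE 0.08) did not pass, so the pair lay on opposite sides of the threshold while differing by little in size.

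AKR1C2, which inactivates the androgen dihydrotestosterone, had the largest difference of the 13. Its _a_at probe set read 6.51 and 6.61 on the control arrays and 5.80 and 5.46 on the NeuroD2 arrays. The control pair was above the NeuroD2 pair, and the NeuroD2 pair was the most spread of any member. Group means were 6.56 ± 0.08 (SD, n = 2) and 5.63 ± 0.24 (SD, n = 2), so that AKR1C2 on this set fell by 0.93 (SE 0.13), a 1.90-fold lower signal. Without control replicate 1 the difference was -0.98. With NeuroD2 replicate 1 left out it was -1.09, and with NeuroD2 replicate 2 left out it was -0.76.

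The other AKR1C2 probe sets did not show this fall. The _x_at set 11761114_x_at read 5.37 and 5.48 on the control arrays and 5.50 and 5.70 on the NeuroD2 arrays, a difference of 0.17 (SE 0.10) that did not pass. The dim _x_at set 11738245_x_at read 3.35 and 3.24 against 3.30 on both NeuroD2 arrays. The direction for AKR1C2 therefore rests on 1 of its 3 probe sets, and the mean of the 3 differed by -0.25 and did not pass.

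AKR1C3, which makes testosterone from androstenedione and also acts as a prostaglandin F synthase, had 1 bright and 1 dim probe set. The _a_at set read 9.19 and 9.12 on the control arrays and 8.53 and 8.69 on the NeuroD2 arrays. The groups did not overlap, with means of 9.15 ± 0.05 (SD, n = 2) and 8.61 ± 0.12 (SD, n = 2). AKR1C3 on this set fell by 0.54 (SE 0.09), a 1.46-fold lower signal, and the difference was -0.51 without control replicate 1. It did not pass with a robust variance prior. The other AKR1C3 set, 11761156_at, read 3.55 and 3.47 against 3.55 and 3.62, and the mean of both sets differed by -0.23 and did not pass.

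AKR1C4, an enzyme known mainly from liver that clears steroids and bile acid precursors, was dim on every array. Its probe set read 3.75 and 3.77 on the control arrays and 3.80 and 3.69 on the NeuroD2 arrays, and the groups overlapped. The liver markers read between 3.47 and 5.85 on all arrays, albumin (ALB) between 3.63 and 3.89, and 0 of the 6 passed the limma threshold (1 at an unadjusted p below 0.05).

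Over the AKR1C genes as a group, 3 of 8 probe sets passed, AKR1C1 higher and AKR1C2 and AKR1C3 lower, and the median difference of the 8 was 0.04. The 3 probe sets annotated to AKR1C1 and AKR1C2 together are not members, and 0 of them passed. The bright one, 11754189_s_at, read 9.33 and 9.49 on the control arrays and 9.59 and 9.58 on the NeuroD2 arrays. Its difference of 0.17 (SE 0.09) lay between those of the AKR1C1 and AKR1C2 _a_at sets. The remaining 2 read between 3.40 and 3.59 and differed by 0.05 and -0.08.

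AKR1B10, which reduces retinaldehyde to retinol and detoxifies lipid aldehydes, fell on both of its probe sets. The _at set read 8.82 and 8.77 on the control arrays and 8.10 and 8.16 on the NeuroD2 arrays. Means were 8.80 ± 0.04 (SD, n = 2) and 8.13 ± 0.05 (SD, n = 2), and the difference of -0.67 (SE 0.08), a 1.59-fold lower signal, was larger than either replicate gap. The _x_at set, designed from the same transcript, read 8.57 and 8.49 against 7.98 and 8.03, a difference of -0.52 (SE 0.08). Without control replicate 1 the differences were -0.64 and -0.48.

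AKR1B10 shares 2 probe sets with its close relative AKR1B15. The set 11724489_s_at read 7.28 on both control arrays and 7.00 and 7.17 on the NeuroD2 arrays, a difference of -0.20 (SE 0.09). The set 11742378_a_at read 7.52 and 7.51 against 7.47 and 7.33, a difference of -0.11 (SE 0.09). Neither passed, and over all 5 probe sets shared with a paralog 0 passed the limma threshold, with 0 at an unadjusted p below 0.05. AKR1B15's own probe set differed by 0.03.

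AKR7A2, which reduces succinic semialdehyde, a product of the neurotransmitter GABA, to gamma-hydroxybutyrate, fell on all 3 of its probe sets. The set 11756520_x_at read 10.71 and 10.60 on the control arrays and 9.82 and 9.86 on the NeuroD2 arrays. Its means were 10.65 ± 0.08 (SD, n = 2) and 9.84 ± 0.03 (SD, n = 2), a difference of -0.81 (SE 0.08) or a 1.75-fold lower signal. The set 11716397_a_at read 10.70 and 10.50 against 9.83 and 9.89, a difference of -0.74 (SE 0.10). On both of these sets control replicate 1 was the highest array, and without it the differences were -0.75 and -0.64. The third set, 11762339_x_at, read 8.01 and 8.02 against 7.55 and 7.47, a difference of -0.50 (SE 0.08), and of -0.51 without control replicate 1. The 3 sets were designed from different transcript records of the same gene and shared the direction. Whether their probes overlap was not tested, so the 3 may not be independent readings.

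**Figure D2:**
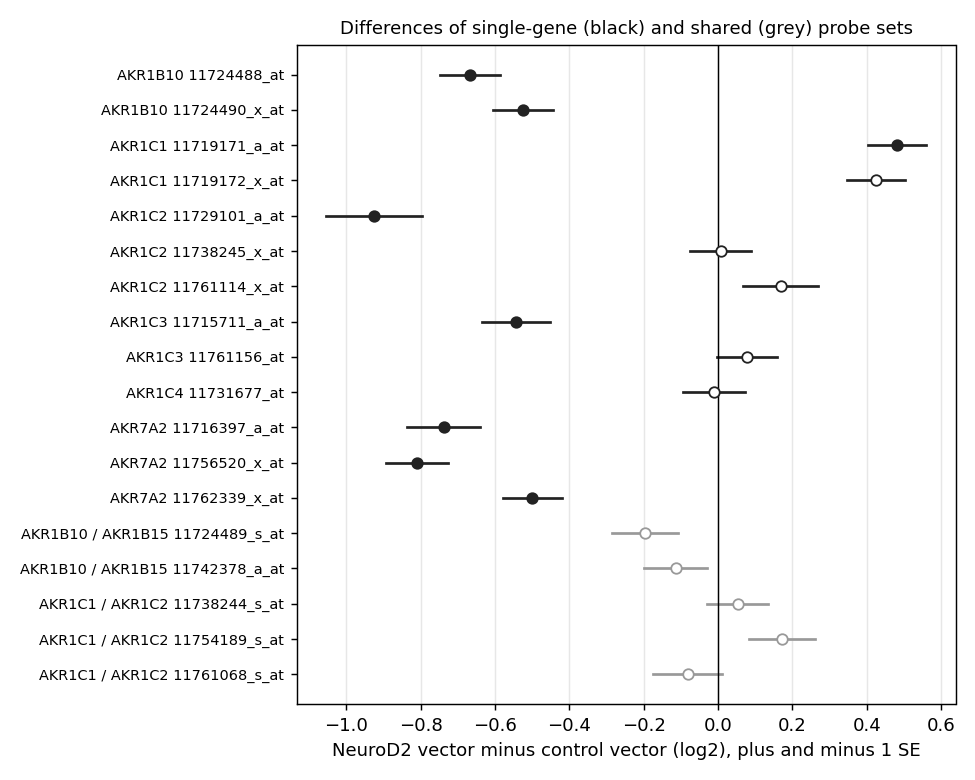
Difference in log2 between the NeuroD2 and control vectors (horizontal axis) with 1 SE to each side, black for the 13 member probe sets and grey for the 5 annotated to a member and a paralog, filled where the limma fit passed. AKR1C1 lies to the right at 0.48 and 0.42, AKR1C2 lies at -0.93 on 1 set and at 0.01 and 0.17 on the others, and the grey points stay between -0.20 and 0.17.

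The members' levels set how far these differences can be read. The 8 probe sets that passed had readings from 5.46 to 10.71 on the single arrays. The 3 with a mean below 4 (AKR1C2 11738245_x_at, AKR1C3 11761156_at and AKR1C4) read between 3.24 and 3.80 and differed by at most 0.08 in size. A list of other superfamily genes gave 18 probe sets, those of AKR1B15, AKR1D1, AKR1E2, AKR7A3 and the potassium channel beta subunits KCNAB1, KCNAB2 and KCNAB3. Of these, 0 passed the limma threshold and 1, a set of AKR1E2 at 0.42, had an unadjusted p below 0.05. Their differences ran from -0.21 to 0.42 with a median of 0.0021, and their readings from 3.03 to 7.28. AKR1C8 and AKR1C6P, relatives of the AKR1C members outside that list, had 1 probe set each, which differed by -0.02 and 0.12 and did not pass.

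**Figure D3:**
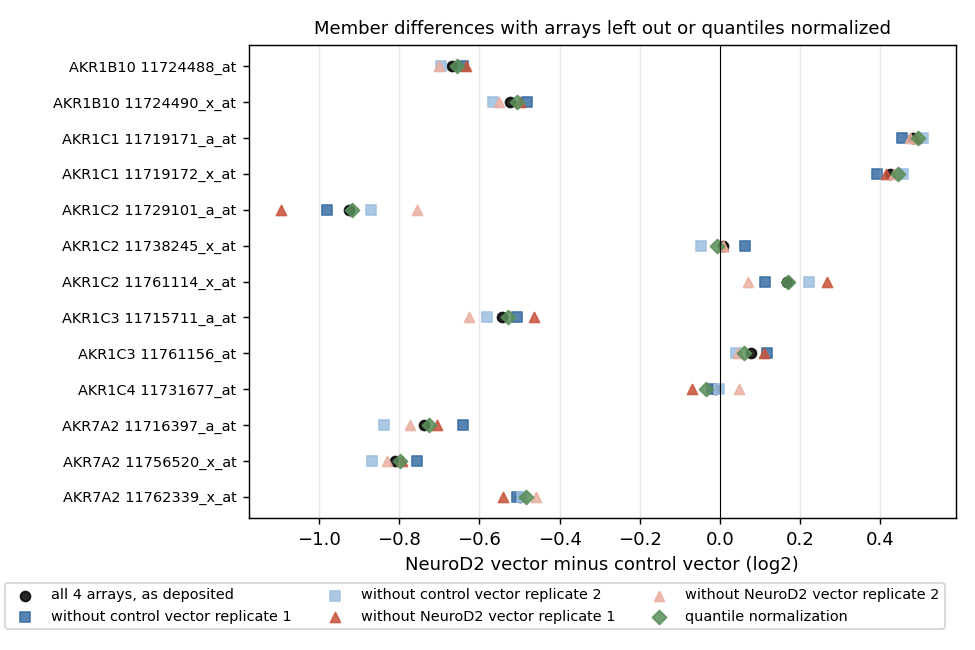
Difference in log2 between the NeuroD2 and control vectors (horizontal axis) for each member probe set on all 4 arrays (black circles), with each array left out (squares and triangles) and after quantile normalization (diamonds). For AKR1B10, AKR1C1, AKR7A2 and the _a_at sets of AKR1C2 and AKR1C3 every point stays on 1 side of 0, with AKR1C2 running from -1.09 to -0.76. With an array left out this side was fixed in advance, because the groups of these sets did not overlap. The points of AKR1C4 and AKR1C2 11738245_x_at fall on both sides.

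Genes of the pathways these enzymes belong to were read from lists of 126 genes in all. Of these 114 had a probe set, and the brightest probe set of each gene was used. The lists were chosen with earlier results of these data known, so their counts and differences are a description only. Over all probe sets 19.7% had an unadjusted p below 0.05 in limma, the share beside which the unadjusted counts of the lists are given. That share includes dim sets and sets without a symbol, unlike the lists. In a fit of the brightest set per gene 3946 of 18132 had such a p, and with dim sets left out 8170 of 24647. Of the 114, 4 passed, 3 higher and 1 lower. Without either control array 0 of the 114 passed, and without either NeuroD2 array 1 passed, in the prostaglandin list. Among regulators of NRF2, 1 of 8 passed: MAFF, a small MAF protein that partners NRF2 on DNA, rose by 0.48 (limma, adjusted p = 0.0409), and its other probe set also passed. Its relative MAFG differed by 0.44 (limma, adjusted p = 0.0781) and the KEAP1-binding adaptor SQSTM1 by 0.19, while NRF2 itself (NFE2L2) differed by 0.04. Of the 8 regulators, 3 had an unadjusted p below 0.05, all of them higher. Among NRF2 targets outside the family, 0 of 21 passed in limma and 6 had an unadjusted p below 0.05, 5 of them higher. The largest differences were 0.47 for OSGIN1, 0.42 for the cystine transporter SLC7A11 (adjusted p = 0.0640) and 0.41 for the sulfiredoxin SRXN1 (adjusted p = 0.0577). The median of the 21 was 0.00017. The count for this list depended on the processing. It was 5 with an intensity trend in the variance prior or when a gene's probe sets were averaged. It was 6 with dim probe sets left out, and 2 with quantile normalization or with 1 probe set per gene. Over the whole array 4041 of 49293 sets passed with the trend, 4086 of 24647 with dim sets left out and 1708 of 49293 with quantile normalization. Per gene, 1187 of 18132 passed on the mean of probe sets and 864 of 18132 on the brightest set.

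Other carbonyl-metabolising enzymes were measured for 17 genes, and 1 passed. At an unadjusted p below 0.05 there were 8 of the 17, 1 higher and 7 lower, beside 19.7% of all probe sets. ALDH7A1, an aldehyde dehydrogenase of lysine breakdown, fell by 0.71 (limma, adjusted p = 0.0460). It passed on 2 of its 4 probe sets, and the other two differed by 0.29 and -0.11; with a robust variance prior 0 of the 17 genes passed. The next largest differences were -0.45 for DCXR (adjusted p = 0.0803) and -0.37 for ALDH3B1 (adjusted p = 0.0726), and the median of the list was -0.12. Of 20 other steroid-metabolising enzymes, 0 passed in limma and 7 had an unadjusted p below 0.05, 2 higher and 5 lower. The largest were -0.45 for the steroid reductase SRD5A1 (adjusted p = 0.0577), -0.43 for HSD17B7 and -0.34 for HSD17B11, and the median was -0.08. With the intensity trend 7 carbonyl and 3 steroid genes passed, and with dim probe sets left out 5 and 4. When a gene's probe sets were averaged, 3 of each passed. Over the whole array these settings gave 4041 of 49293, 4086 of 24647 and 1187 of 18132, in the same order.

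The prostaglandin list held the largest difference of any list gene. PTGS2, the inducible cyclooxygenase that makes the precursor on which AKR1C3 acts, read 8.76 and 8.92 on the control arrays and 11.74 and 11.86 on the NeuroD2 arrays. It rose by 2.96 (SE 0.10), a 7.79-fold higher signal (limma, adjusted p = 0.00112), and passed on all 3 of its probe sets. None of the other 20 genes passed. The prostaglandin receptor PTGER2 differed by -0.55 (limma, adjusted p = 0.0652) and the reductase PTGR2 by -0.40, and the list median was 0.00015. Of the 21 genes 4 had an unadjusted p below 0.05, 2 higher and 2 lower. Of 13 retinoid genes 1 passed: CYP26B1, which breaks down retinoic acid, rose by 1.10, a 2.15-fold higher signal (limma, adjusted p = 0.00755), on 1 of its 2 probe sets, and the other differed by 0.02. DHRS9 differed by -0.30, RDH10 by 0.22 and the list median was -0.07. Of the 13 genes 2 had an unadjusted p below 0.05, 1 higher and 1 lower. Of 7 polyol and osmotic genes 0 passed in limma and 1 had an unadjusted p below 0.05, which was KHK, the fructose-phosphorylating kinase, at -0.44 (adjusted p = 0.0804), and SLC2A1 and SLC38A2 differed by -0.14 and -0.13.

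**Figure D4:**
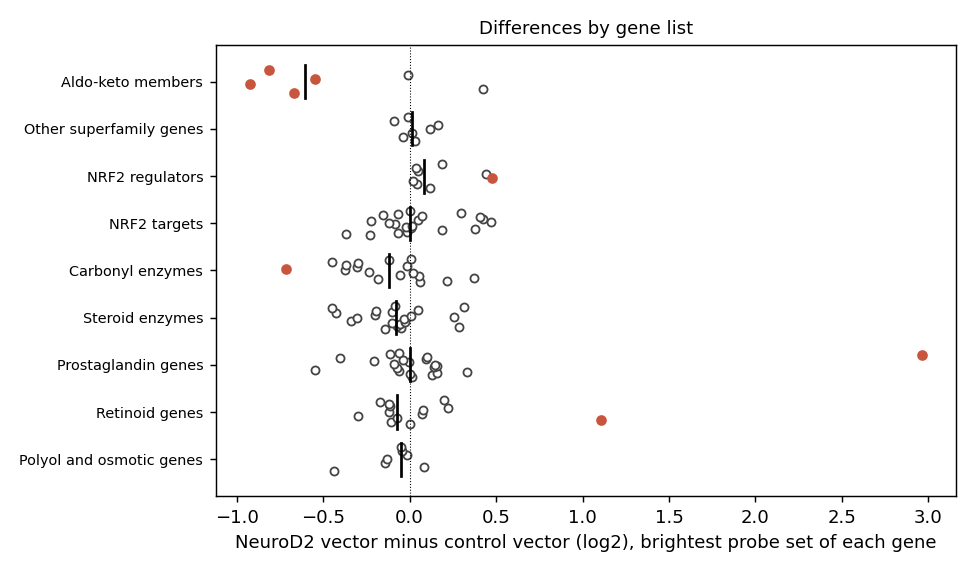
Difference in log2 between the NeuroD2 and control vectors (horizontal axis) for the brightest probe set of each gene, 1 row per gene list, red where the limma fit passed, with a black bar at the list median. PTGS2 at 2.96, CYP26B1 at 1.10, MAFF at 0.48 and ALDH7A1 at -0.71 are the red points outside the members, and AKR1C1 is open in the members' row because its brightest set is the _x_at one.

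Markers of other cell types gave these readings beside the members. Over all probe sets 2.87% passed and 19.7% had an unadjusted p below 0.05 in limma. Of the neuronal markers 1 of 5 passed, SNAP25 at -0.59 (limma, adjusted p = 0.0419). At an unadjusted p below 0.05 there were 3, SNAP25 and SYT1 (-0.45) lower and STMN2 (0.21) higher. Of the glioma markers 1 of 10 passed, FN1 at -0.63 (limma, adjusted p = 0.0419). Here 4 had an unadjusted p below 0.05, FN1 lower and TNC (0.45), OLIG2 (0.39) and GFAP (0.24) higher. Of the immune markers 0 of 4 passed in limma (2 at an unadjusted p below 0.05), with PTPRC, the pan-leukocyte marker, between 2.95 and 3.53 and CD68 between 10.07 and 10.21. Of the epithelial markers 0 of 5 passed (1 at an unadjusted p below 0.05), with readings from 3.56 to 5.34.

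The 5 other genes whose profile over the 4 arrays, centred on its own mean, lay nearest to that of AKR1C2 11729101_a_at were NREP, LOC154761, ANGPT1, PDCD4 and SKP2. Their root mean square distances were 0.0343, 0.0547, 0.0607, 0.0679 and 0.0696 in log2. Their group differences ran from -0.91 for NREP to -0.81 for SKP2 beside -0.93 for that AKR1C2 set. Differences this close follow from the way the genes were picked.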

How the data were processed

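Total RNA was labelled with the GeneChip 3' IVT Express kit, per the labels' protocols, and hybridised to PrimeView arrays. The values deposited by the authors are 1 number per probe set and array on a log2 scale, read from their range; the software and the normalization behind them were not given in the sources used here. The 102 Affymetrix control probe sets were left out. Of 49293 others, 44988 carried 1 gene symbol, 1832 several and 2473 none. Groups were compared with limma 3.58.1 (R 4.3.3; lmFit, eBayes, no covariate), two-sided, with Benjamini-Hochberg adjustment over all probe sets and a threshold of 0.05; 2 residual and 3.87 prior degrees of freedom were available. An exact permutation of 2 against 2 cannot go below 0.333. On simulated data of 49293 probe sets the fit recovered 76% of 1-unit and 1% of 0.5-unit log2 differences. With adjusted p-values such shares depend on how many probe sets are changed. They therefore describe the simulation only, and the power on these 4 arrays was not measured. Members and lists were chosen with earlier results of these data known. Named were all member probe sets, NEUROD2, up to 3 genes per list by size on the brightest probe set, the 5 nearest profiles, and any list gene that passed; NFE2L2 and the markers given by level were added. Alternatives were a replicate block, each array left out, quantile normalization, median centring, trended or robust priors, a filter on dim probe sets, and 1 value per gene. Upstream windows and chromosomes came from RefSeq (GRCh38.p14).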

Additional observations from a re-analysis of the deposited data

How the results depend on the processing

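On the deposited values 8 of 13 aldo-keto reductase probe sets passed. This was 0 whichever array was left out and 0 with the replicate block, while quantile normalization, median centring, an intensity trend, a robust prior and leaving out dim probe sets gave 7 to 9. Taking 1 value per gene, 5 of 6 genes passed on the brightest probe set and 3 of 6 on the mean of probe sets. Of the 8 AKR1C sets 3 passed, 0 whichever array was left out, 0 with the replicate block, 2 with the robust prior, 4 with the trend, and 1 gene on the mean of probe sets. The median difference of -0.50 ran from -0.494 to -0.460 without 1 array, and was -0.544 with dim sets left out, -0.606 on the brightest set and -0.241 on the mean. The pathway lists' 4 called genes became 0 to 1 without 1 array, 1 with the replicate block, 22 with the trend, 21 with dim sets left out, 8 with 1 brightest set per gene and 15 on the mean. Over all probe sets 1416 passed, 90 with the replicate block, 4041 with the trend, 0 without either control array and 45 without either NeuroD2 array; fewer samples entered those last fits. With dim sets left out 4086 of 24647 passed. Per gene, 864 of 18132 passed on the brightest set and 1187 of 18132 on the mean of probe sets. Deviations of same-numbered arrays correlated at 0.076 and the labels tie the numbers to nothing shared. Signs turned only for sets near 0: AKR1C2 11738245_x_at was 0.01, -0.048 without control replicate 2 and -0.0078 after quantile normalization (-0.048 to 0.061 without 1 array), and AKR1C4 was -0.01 and 0.048 without NeuroD2 replicate 2 (-0.071 to 0.048). Where a count moved for another reason than fewer samples or features, the cause was not tested. Dim sets and the number of arrays limit what could be seen.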

Other observations

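Genes on either side of the AKR1C cluster on chromosome 10, chosen for their position, were read on their brightest probe set. KLF6, a zinc finger transcription factor and the nearest measured gene beyond AKR1E2, rose by 0.43 (limma, adjusted p = 0.04997). PITRM1 and PFKP, farther out on that side, differed by 0.17 and -0.08. On the other side UCN3, TUBAL3, NET1 and CALML5 differed by 0.07, 0.06, -0.36 and 0.27, and none passed. Within the cluster AKR1E2 differed by 0.01 and AKR1C8 by -0.02.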
